A study of Mus musculus with 9 samples.

Results

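The genes described here encode the proteins of the cytosolic ribosome. They are the protein-coding genes whose symbol is Rpl or Rps followed by a number, with an optional ending of a, x, y or l, together with *Rplp0*, *Rplp1*, *Rplp2* and *Rpsa*, and without the Rps6k kinases. Of 55471 gene IDs, 80 met the rule and all 80 had a mean of at least 10 counts over the 9 libraries, 49 for the large and 31 for the small subunit. RNA was sequenced from mouse embryoid bodies (EBs), aggregates in which embryonic stem (ES) cells begin to differentiate, formed for 3 days in hanging drops and then kept for 3 days under differentiation conditions. The 3 groups of 3 libraries were wild-type EBs of the parental E14 line (WT), *Tnfaip2*-/- EBs (KO), and *Tnfaip2*-/- EBs that received 8 μM of palmitic acid and 8 μM of palmitoyl-L-carnitine, together PA/PC (KO_PAPC). The *Tnfaip2*-/- cells are 1 CRISPR-Cas9 clone with a frameshift and a premature stop codon, and many EBs were pooled per library. With 1 clone, loss of *Tnfaip2* and other differences of this clone from the parental line cannot be told apart. By the study's methods PA/PC was present from EB formation on and in fibroblast (MEF) medium, whereas untreated EBs formed in ES cell medium. The labels mention PA/PC without this difference, so that in KO_PAPC the fatty acids and the medium of EB formation cannot be told apart, and "with PA/PC" below stands for the whole treatment. The labels give no batch or date, and WT EBs with PA/PC were not analysed here.

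The large subunit of the ribosome holds the centre that joins amino acids and the tunnel through which the new protein leaves, and the small subunit reads the mRNA. Ribosomal protein mRNAs are known for a run of pyrimidines at their 5′ end, the TOP motif, through which mTOR signalling and the RNA-binding protein LARP1 control their translation. The Myc transcription factors are known to raise transcription of these genes, and rapidly growing cells such as ES cells make many ribosomes. The mammalian genome also holds a large number of processed pseudogenes copied from ribosomal protein mRNAs, with which short reads of the true genes are easily confused.

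The sequence around the start of transcription is shown first, because the pyrimidine run at this place is the best known common feature of these genes. RefSeq gave a promoter for 60 of the 80 members on build GRCm38.p6, from 250 bases before to 50 bases after each annotated start. Of these 60 genes, 37 (61.7%) had at least 1 run of 7 or more C or T that began within 20 bases of an annotated start on the strand of the gene. Among all 27025 genes of that table the share was 29.2%, and among its protein-coding genes 28.9%. The share was 62.2% for the large and 60.9% for the small subunit. The letters CCGGAAG, the core that ETS factors bind, lay on either strand of the 300 bases in 25 of the 60 members (41.7%). They lay in 9.93% of all genes and in 13.4% of protein-coding genes. The letters AAGATGGC, part of the YY1 motif, were found on either strand in 5 members (8.33%), 3.19% of all genes and 3.64% of protein-coding genes. TATAAA was found on either strand in 6 members (10.0%), 15.7% of all genes and 14.3% of protein-coding genes. Genes with several annotated starts have more chances to hold a run. RefSeq starts are not exact to the base, so a missing run says only that these letters do not lie in this window.

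The windows below run from 15 bases before to 15 bases from the annotated start (base 16 is the start), 5′ to 3′, and capitals mark the part of the run that lies in the window. The first 8 are members of the usual kind with a run that crosses the start. All 8 were called higher in KO_PAPC than in KO, as were 90% of all members.
Rpl15, chr14:18270972-18271001, minus strand: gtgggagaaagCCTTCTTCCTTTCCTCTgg
Rpl35a, chr16:33056467-33056496, plus strand: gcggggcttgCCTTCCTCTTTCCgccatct
Rpl38, chr11:114668565-114668594, plus strand: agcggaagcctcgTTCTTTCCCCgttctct
Rplp2, chr7:141447636-141447665, plus strand: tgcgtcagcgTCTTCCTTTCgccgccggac
Rps6, chr4:86857353-86857382, minus strand: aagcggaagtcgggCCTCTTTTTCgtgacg
Rps10, chr17:27635230-27635259, minus strand: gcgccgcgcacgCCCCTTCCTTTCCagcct
Rps18, chr17:33955651-33955680, minus strand: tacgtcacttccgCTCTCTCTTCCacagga
Rps27, chr3:90213634-90213663, minus strand: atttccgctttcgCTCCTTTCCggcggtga

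The next 3 belong to divergent paralogs of ribosomal protein genes, 2 of which (*Rpl10l* and *Rpl3l*) were the members called lowest in KO_PAPC against KO. The windows of *Rpl10l* and of the upstream start of *Rpl3l* held no such run, while that of *Rpl39l* held 1 of 7 bases before its start. Over all 4 paralogs, *Rpl39l* and *Rps27l* had a run and *Rpl10l* and *Rpl3l* had none at any annotated start. Among the 6 largest rises with PA/PC against KO, *Rpl13a* and *Rpl13* had a run, while *Rps23*, *Rpl22* and *Rps2* had none at any annotated start. *Rpl19*, called lower there, had a run of 11 bases at its downstream start. Whether a run goes with the change of a gene was not tested.
Rpl10l, chr12:66284387-66284416, minus strand: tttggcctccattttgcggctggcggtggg
Rpl3l, chr17:24727811-24727840, plus strand: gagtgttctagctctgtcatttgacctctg
Rpl39l, chr16:10170213-10170242, plus strand: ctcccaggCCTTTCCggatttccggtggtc

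The values were read counts per gene, with 27362913 to 28914312 counts per library. Reads that mapped to several places were not counted, which touches ribosomal protein genes more than most. A median of 33.1% of the 51-base words of a member, the length of a read, also lay in transcripts of other genes, with a range from 0%, as in *Rps14*, *Rpl3l* and *Rpl39l*, to 94.9% in *Rpl35*, and in 21 members the shared words outnumbered the others. The counts are therefore a lower limit on each member's level and do not rank the members. *Rpl4* alone made up 14.4% of the counts of all members and the 5 highest made up 42.7%. Per kilobase of exon, the mean level in normalised CPM (counts relative to the library total scaled by a TMM factor) ran from 1.33 for *Rpl3l* over a median of 63.2 to 2504 for *Rplp1*. Replicates lay close together, with a median coefficient of variation over members of 2.73% in WT, 3.12% in KO and 3.48% in KO_PAPC. *Tnfaip2* itself was too near the floor to check the KO label, so directions are those of the libraries labelled KO. In bulk RNA, fewer cells with high ribosomal protein mRNA and less of it per cell cannot be told apart.

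Ribosomal protein genes took a larger share of the RNA in KO_PAPC than in the other groups. The members held 2.76, 2.78 and 2.78% of all counts in the WT libraries, 2.59, 2.52 and 2.50% in KO and 3.29, 3.47 and 3.41% in KO_PAPC. The 3 groups did not overlap, with KO below WT and KO_PAPC above both. WT had a mean of 2.77 ± 0.0127% (SD, n = 3), KO of 2.54 ± 0.0450% and KO_PAPC of 3.39 ± 0.0889%. No p is given for such a sum, and groups of 3 against 3 could not reach an exact permutation p under 0.1. The order was the same without *Rpl4* (2.36, 2.16 and 2.93% on average) and over the 26 members with at most 20% shared words (1.72, 1.57 and 2.06%).

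**Figure D1:**
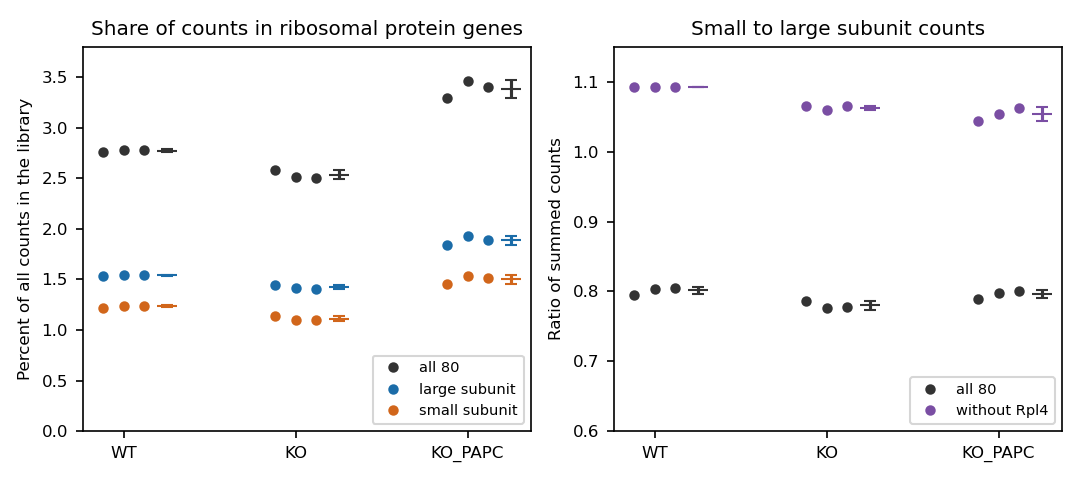
Left, the percent of each library's counts in all 80 ribosomal protein genes, in the large and in the small subunit; right, the ratio of small to large subunit counts, with and without *Rpl4*, on an axis that does not start at 0. Dots are libraries and bars the mean ± SD of 3; on the left all KO_PAPC libraries lie above all WT libraries, and all KO libraries below.

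Both subunits moved in the same order. The large subunit genes held 1.54% of counts in each WT library, 1.41 to 1.45% in KO and 1.84 to 1.93% in KO_PAPC. The small subunit genes held 1.22 to 1.24%, 1.09 to 1.14% and 1.45 to 1.54%. The ratio of small to large subunit counts was 0.801 ± 0.00565 (SD, n = 3) for WT, against 0.780 ± 0.00594 for KO and 0.796 ± 0.00600 for KO_PAPC. The KO libraries (0.776 to 0.787) lay below the WT libraries (0.795 to 0.805), while KO_PAPC (0.789 to 0.801) overlapped WT. This order rested on *Rpl4*, because without it the ratio was 1.09 ± 0.000338 in WT, 1.06 ± 0.00296 in KO and 1.05 ± 0.00977 in KO_PAPC. Over members with at most 20% shared words KO_PAPC had the highest ratio, 1.21 ± 0.00300, against 1.19 ± 0.0132 in WT and 1.14 ± 0.0175 in KO. A lower ratio in KO than in WT was common to the 3 calculations, and the place of KO_PAPC was not.

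To ask how *Tnfaip2*-/- and WT EBs differed in these genes, KO was compared with WT by the quasi-likelihood test of edgeR. The test ran over all 17355 genes tested, and an adjusted p under 0.05 made a call. Most members changed a little, and more fell than rose. Of the 80 members, 21 (26.3%) were called higher and 41 (51.3%) lower, beside 36.8% and 37.1% of all genes tested. In all, 62 members (77.5%) were called, near the 73.8% of all genes. The groups did not overlap for 63 members (78.8%) against 75.3% of all genes. The median log2 fold change of the members was -0.11, a fold of 0.927, beside -0.01 over all genes, and their quartiles were -0.23 and 0.10. Only 1 member (1.25%) was called when a change beyond 1.5-fold was tested, against 21% of all genes.

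Among the members that fell most in KO were *Rps2*, *Rpl22*, *Rpl13a*, *Rps29* and *Rpl36*. *Rpl22*, a large subunit protein at the rim of the exit tunnel whose loss is known to impair lymphocyte development, had 630, 626 and 628 normalised CPM in WT and 460, 441 and 461 in KO, so that all KO libraries were lower. The change was -0.47 ± 0.0216 on the log2 scale (SE, edgeR adjusted p = 1.07e-19), and few of its words were shared. *Rpl13a*, known for a second role in silencing of inflammatory mRNAs, went from 140, 145 and 145 CPM to 105, 105 and 101. Its log2 fold change was -0.47 ± 0.0284 (edgeR adjusted p = 2.09e-16), but 57.4% of its words were shared and 35.4% of its exon bases overlapped exons of other genes. *Rps29* and *Rpl36* were low, with means of 5.24 and 15.7 CPM in WT, and had log2 fold changes of -0.46 and -0.43. Of the words of *Rpl36*, 80.5% were shared.

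The 6 largest rises in KO were of *Rpl39l*, *Rpl3l*, *Rpl10*, *Rpl27*, *Rpl19* and *Rpl36a*. *Rpl10*, an X-linked gene for a protein that joins the large subunit last and lies near the peptidyl transferase centre, had 39.5, 40.0 and 42.9 CPM in WT and 54.9, 52.7 and 55.6 in KO. All KO libraries were higher, by 0.41 ± 0.0399 on the log2 scale (edgeR adjusted p = 3.59e-11). *Rpl27*, a large subunit gene, rose from 27.6, 31.7 and 33.0 to 42.2, 40.2 and 37.9 CPM, by 0.38 ± 0.0514 on the log2 scale (edgeR adjusted p = 5.34e-08). *Rpl19*, at the rim of the exit tunnel, rose by 0.38 ± 0.0919 (edgeR adjusted p = 4.24e-04), but at a mean of only 5.25 CPM in WT and with 79.2% of its words shared. The X-linked *Rpl36a* rose by 0.36 ± 0.0495 (edgeR adjusted p = 8.13e-08).

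**Figure D2:**
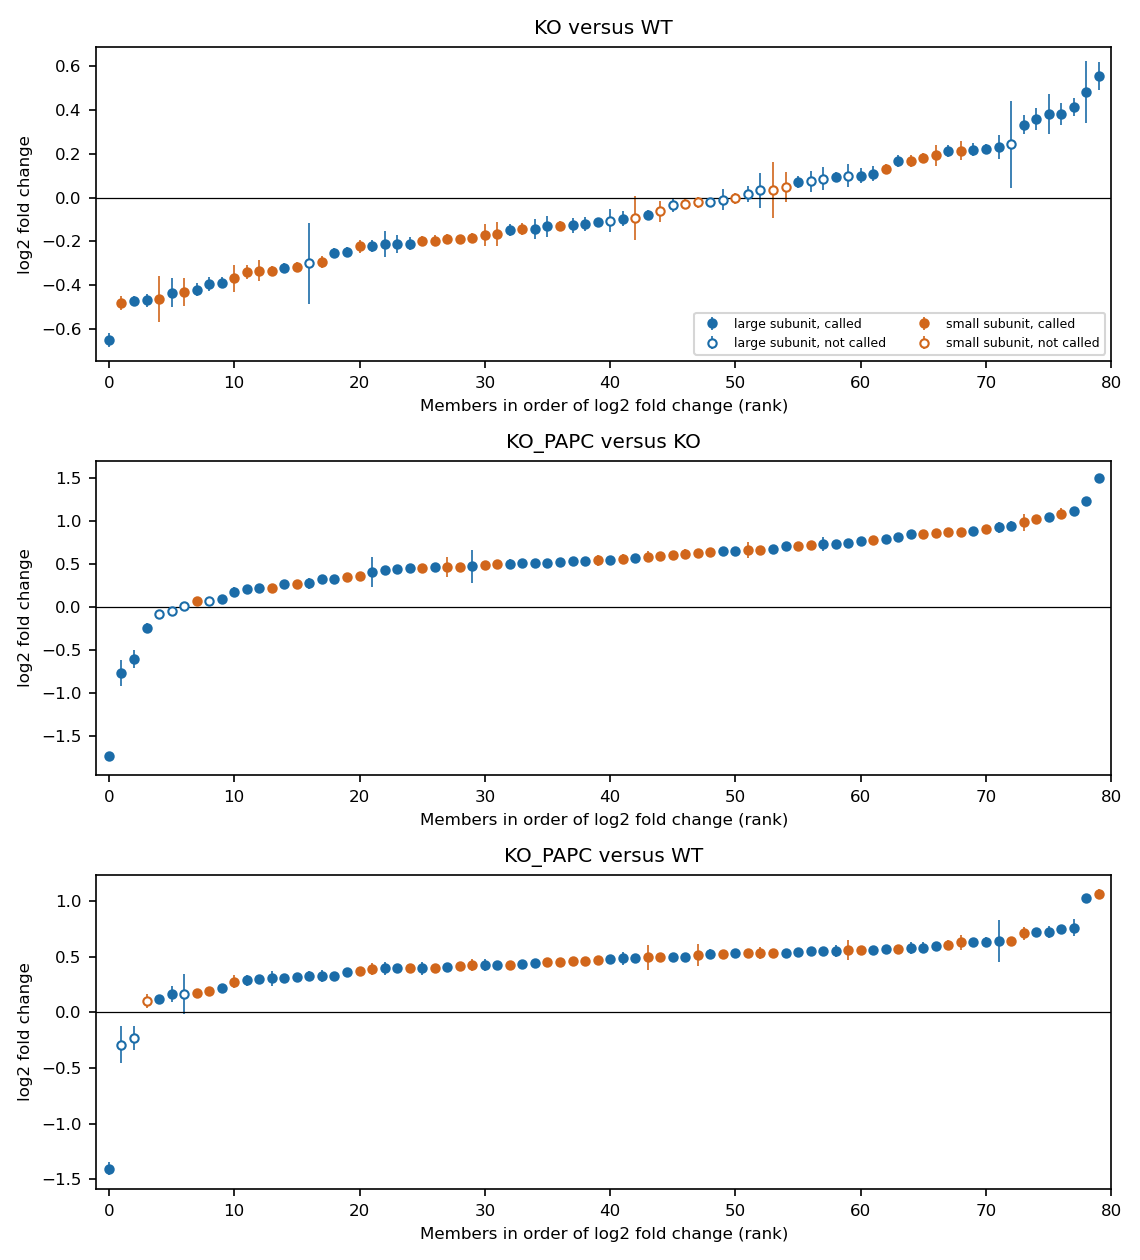
The log2 fold change of each of the 80 members in the 3 comparisons, in order of size, with its SE as a bar; blue is the large and orange the small subunit, and open circles did not pass the edgeR test. In KO versus WT the points lie on both sides of 0 (quartiles of -0.23 and 0.10), whereas in both comparisons of KO_PAPC nearly all lie above 0 and *Rpl10l* lies lowest.

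To ask how *Tnfaip2*-/- EBs with and without PA/PC differed, KO_PAPC was compared with KO over 17167 genes tested. Nearly all members rose. Of the 80, 72 (90%) were called higher and 4 (5%) lower, beside 39.6% and 42.2% of all genes, and 76 (95%) were called in all against 81.8%. The groups did not overlap for 76 members (95%) against 82.2% of all genes. The median log2 fold change was 0.54, a fold of 1.45, beside -0.02 over all genes, with quartiles of 0.36 and 0.75. When a change beyond 1.5-fold was tested, 31 members were called higher and 1 lower (40%), against 37.8% of all genes in either direction. Size factors mattered here. Scaling by library totals moved the median of all genes to -0.18, and with it 63 members were called higher and 9 lower with a median of 0.37, while the distance between the members' and all genes' medians stayed at 0.56.

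*Rpl13a* rose most, to 286, 301 and 293 normalised CPM from 105, 105 and 101 (2.82-fold, edgeR adjusted p = 9.62e-33). *Rpl13*, of the large subunit, had 146, 147 and 147 CPM against 69.1, 66.0 and 67.6, a rise of 1.12 ± 0.0318 on the log2 scale (edgeR adjusted p = 1.57e-27). *Rps23*, a protein of the decoding site, rose by 1.08 ± 0.0618, *Rpl22* by 1.04 ± 0.0242 and *Rps2* by 1.02 ± 0.0296 on the log2 scale (largest edgeR adjusted p = 3.71e-18). Of the 3 members with the most counts, *Rpl4* stood at 3642, 3658 and 3664 CPM in KO and at 4836, 5071 and 5065 in KO_PAPC, a rise of 0.45 on the log2 scale. *Rpl8* rose by 0.51 and *Rps3* by 0.64.

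The 4 members called lower were *Rpl10l*, *Rpl3l*, *Rpl19* and *Rpl39l*, of which 3 are divergent paralogs. *Rpl10*, *Rpl27*, *Rpl23* and *Rpl36a* were not called, with log2 fold changes of -0.08 (edgeR adjusted p = 0.0538), -0.05 (0.334), 0.01 (0.851) and 0.07 (0.167). With scaling by library totals *Rpl10* (-0.25, edgeR adjusted p = 4.87e-07) and *Rpl27* (-0.22, 7.02e-05) were called lower. Both were also called lower with the correction for GC content and length (0.0407 and 0.0338), and *Rpl10* with a filter at a mean of 10 counts (0.0452) or without KO replicate 2 (0.0309). *Rpl26*, called higher by 0.09 in the reported fit, turned to -0.08 with library totals (edgeR adjusted p = 0.0184), and its call was lost with the GC correction (0.673) and without KO replicate 2 (0.0917) or KO replicate 3 (0.0536). *Rpl10* and *Rpl36a* are X-linked and *Rpl27* and *Rpl23* lie on chromosome 11. *Rpl19*, also on chromosome 11, had 6.98, 7.28 and 6.28 CPM in KO and 4.20, 5.06 and 4.25 in KO_PAPC, with a change of -0.61 ± 0.104 on the log2 scale (edgeR adjusted p = 2.03e-06).

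KO_PAPC was also compared with WT, over 16655 genes, to ask how far the treated *Tnfaip2*-/- EBs stood from WT EBs. Nearly all members were higher in KO_PAPC, with called rises from 0.12 (*Rpl15*) to 1.07 (*Rps12*) on the log2 scale. Of the 80, 75 (93.8%) were called higher and 1 (1.25%) lower, beside 34.2% and 36.4% of all genes, and 76 (95%) were called in all against 70.6%. The groups did not overlap for 76 members (95%) against 72.6% of all genes. The median log2 fold change was 0.48, a fold of 1.39, beside -0.02 over all genes, with quartiles of 0.37 and 0.56. Only 8 were called higher and 1 lower (11.3%) when a change beyond 1.5-fold was tested, against 17.7% of all genes. With scaling by library totals, 68 were called higher and 3 lower. The comparisons are not independent of each other, because each library enters more than one of them. By group mean, 74 of the 80 members were highest in KO_PAPC and 6 in KO, and 51 were lowest in KO, 26 in WT and 3 in KO_PAPC.

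The largest rises over WT were of *Rps12*, *Rpl13a*, *Rpl29*, *Rpl27a*, *Rpl11* and *Rpl13*. *Rps12*, a small subunit protein, had 36.5, 36.4 and 36.4 CPM in WT, 40.1, 44.6 and 42.3 in KO and 78.4, 78.0 and 74.0 in KO_PAPC. It was thus above WT in both other groups, with a log2 fold change of 0.21 ± 0.0426 in KO (edgeR adjusted p = 3.52e-05) and 1.07 ± 0.0400 in KO_PAPC (edgeR adjusted p = 1.59e-17). *Rpl13a* was 1.03 ± 0.0299 higher in KO_PAPC than in WT, *Rpl29* 0.76 ± 0.0770, *Rpl27a* 0.75 ± 0.0357, *Rpl11* 0.72 ± 0.0548 and *Rpl13* 0.72 ± 0.0316 on the log2 scale (largest edgeR adjusted p = 3.26e-09). *Rpl10l* was the member called lower. *Rpl3l* (-0.29, edgeR adjusted p = 0.118), *Rpl19* (-0.23, 0.0583), *Rps10* (0.10, 0.147) and *Rpl23a* (0.17, 0.418) were not called. With scaling by library totals *Rpl3l* (edgeR adjusted p = 0.0159) and *Rpl19* (0.00204) were called lower. *Rpl19* was also called lower with the replicate number as a block (0.0498), with the GC correction (0.0126) and without KO_PAPC replicate 2 (0.0189), and *Rps10* was called higher with the GC correction (0.0281).

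By role, the P stalk fell in KO, where 41 of all 80 members and 37.1% of all genes tested were called lower. Like most members, the stalk genes rose with PA/PC. The stalk recruits elongation factors to the large subunit and is formed by *Rplp0*, *Rplp1* and *Rplp2* beside *Rpl12*. All 4 genes fell in KO, with log2 fold changes of -0.32 to -0.13, and all 4 rose with PA/PC, by 0.53 to 0.88 against KO and by 0.40 to 0.63 against WT. *Rplp1*, the highest member per kilobase, had 1081, 1111 and 1113 CPM in WT, 969, 916 and 899 in KO and 1705, 1764 and 1686 in KO_PAPC. Its groups did not overlap in any comparison, and its log2 fold change was -0.25 ± 0.0224 in KO against WT (edgeR adjusted p = 5.52e-12) and 0.88 ± 0.0253 in KO_PAPC against KO (edgeR adjusted p = 1.81e-27). *Rplp0*, often taken as a reference gene in qPCR, had 601, 636 and 623 CPM in WT, 509, 493 and 489 in KO and 799, 856 and 828 in KO_PAPC. It too was called in each comparison, with log2 fold changes of -0.32, 0.73 and 0.41.

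The 5S RNP, in which *Rpl5* and *Rpl11* bind 5S rRNA and which can inhibit Mdm2, was less even. *Rpl11* had 17.5, 19.3 and 19.2 CPM in WT, 16.2, 16.6 and 15.6 in KO and 29.8, 32.3 and 30.9 in KO_PAPC. Its log2 fold changes were -0.21 in KO and 0.94 with PA/PC against KO, both called. *Rpl5*, with 93.8% of its words shared, had 24.96, 23.6 and 23.4 CPM in WT, 22.4, 21.4 and 23.1 in KO and 31.2, 25.8 and 24.2 in KO_PAPC. It was not called in KO (-0.11, edgeR adjusted p = 0.0639) and was called by 0.27 with PA/PC against KO. Its call against WT (0.17, edgeR adjusted p = 0.0348) was lost without KO_PAPC replicate 1 (0.05, 0.441), WT replicate 2 (0.0833) or WT replicate 3 (0.0933), and both calls of *Rpl5* were lost with scaling by library totals (0.124 against KO, 0.981 against WT).

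At the mRNA entry of the small subunit, *Rps2* and *Rps3* both fell in KO, by 0.48 and 0.19 on the log2 scale. They rose with PA/PC by 1.02 and 0.64 against KO, but 71.0% of the words of *Rps2* were shared. *Rps3*, with 4.69% of its words shared, had 2133, 2120 and 2098 CPM in WT, 1894, 1839 and 1854 in KO and 2810, 2964 and 2963 in KO_PAPC. At the decoding site, *Rps15* and *Rps23* fell by 0.19 and 0.37 and rose by 0.59 and 1.08, and 51.6% of the words of *Rps23* were shared. With a correction for GC content and length, the fall of *Rps15* in KO turned to 0.03 and was not called (edgeR adjusted p = 0.110). Near the peptidyl transferase centre, *Rpl3* (0.10) and *Rpl10* (0.41, on a chromosome with a median of 0.30) were called higher in KO, as were 21 of all 80 members, and *Rpl8* was not called (-0.02), but was called higher with that correction (0.12). The call of *Rpl3* in KO was lost without KO replicate 1 (edgeR adjusted p = 0.0906), WT replicate 2 (0.0613) or WT replicate 3 (0.0680), and with no filter beyond 1 count (0.0540). With PA/PC against KO, *Rpl3* rose by 0.21 (not called with scaling by library totals, edgeR adjusted p = 0.239) and *Rpl8* by 0.51 and *Rpl10* was not called, and against WT all 3 were higher, by 0.31 to 0.49. Of the 8 genes at the rim of the exit tunnel, 3 were called higher in KO and 1, *Rpl22*, lower, beside 26.3% and 51.3% of all members. With PA/PC against KO, where 90% of all members were called higher, so were 7 of the 8 rim genes. *Rpl23a*, of this group, was near the floor at 1.30 to 1.81 CPM by group mean, and its call against KO was lost with scaling by library totals (edgeR adjusted p = 0.133), DESeq2 (0.0900), the GC correction (0.125) and without KO_PAPC replicate 1 (0.0614), KO_PAPC replicate 3 (0.0706) or KO replicate 2 (0.0940).

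Of 9 members mutated in Diamond-Blackfan anaemia, an inherited failure of red cell production, 6 were called lower in KO and none higher, where 51.3% of all members and 37.1% of all genes were lower. All 9 were called higher with PA/PC against KO and 8 against WT, as were 90% and 93.8% of all members. *Rps19*, the gene most often mutated in this disease, had 312, 322 and 328 CPM in WT, 288, 282 and 271 in KO and 411, 456 and 467 in KO_PAPC, and shared 2.61% of its words. *Rpsa*, a small subunit protein also described as a laminin receptor, changed by -0.17 in KO and 0.78 with PA/PC. *Rps27a*, which encodes a small subunit protein fused to ubiquitin and lies on chromosome 11, was called higher in KO (0.19) and in KO_PAPC (0.34 against KO, 0.53 against WT). The X-linked *Rps4x* had 344, 337 and 330 CPM in WT, 384, 381 and 382 in KO and 435, 443 and 461 in KO_PAPC, and was called higher in each comparison. With scaling by library totals its rise over KO was not called (0.05, edgeR adjusted p = 0.0509), and 71.5% of its words were shared. *Rpl39*, a tunnel protein, rose by 0.11 in KO, a call lost without KO replicate 3 (edgeR adjusted p = 0.120), and by 0.33 with PA/PC against KO.

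Of the divergent paralogs, *Rpl10l*, *Rpl3l* and *Rpl39l* ran against the members' median in KO and with PA/PC against KO. *Rps27l* was called higher in each comparison. These paralogs are copies that encode a slightly different protein and are known for restricted use, *Rpl10l* and *Rpl39l* in male germ cells and *Rpl3l* in muscle, while *Rps27l* is a target of p53. In KO all 4 were called higher, by 0.13 to 0.55 on the log2 scale. The shares called higher there were 26.3% of all members and 36.8% of all genes tested. *Rpl10l*, on chromosome 12 (66283379 to 66284401 in GRCm38), had 31.6, 34.0 and 33.2 CPM in WT, 42.5, 42.1 and 40.0 in KO and 12.4, 12.7 and 12.5 in KO_PAPC. The KO_PAPC libraries lay far below both other groups. The log2 fold change was 0.33 ± 0.0429 in KO against WT, -1.73 ± 0.0540 in KO_PAPC against KO (edgeR adjusted p = 2.77e-26) and -1.40 ± 0.0561 against WT (edgeR adjusted p = 5.43e-17). It was the member furthest from the median in both comparisons of KO_PAPC, and only 7.19% of its words were shared. Its X-linked paralog *Rpl10* stayed at 52.1, 51.7 and 50.9 CPM in KO_PAPC, above WT by 0.33 ± 0.0426 on the log2 scale.

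*Rpl39l* had 11.8, 13.2 and 11.4 CPM in WT, 18.3, 16.9 and 18.3 in KO and 15.3, 14.5 and 15.5 in KO_PAPC. It rose by 0.55 ± 0.0637 in KO (edgeR adjusted p = 1.75e-09) and fell by 0.25 with PA/PC (edgeR adjusted p = 4.89e-04), to a level between WT and KO. It stayed above WT (0.31), but not by the test with scaling by library totals (edgeR adjusted p = 0.0709) or a correction for GC content and length (0.213). *Rpl3l* was near the floor, at 2.03, 1.83 and 2.22 CPM in WT, 2.86, 2.61 and 3.03 in KO and 1.59, 1.66 and 1.75 in KO_PAPC, with log2 fold changes of 0.48 ± 0.141 and -0.77 ± 0.155. *Rpl39l* and *Rpl3l* shared no word with another gene. *Rps27l* had 223, 220 and 222 CPM in WT, 242, 240 and 247 in KO and 246, 264 and 258 in KO_PAPC. It was called by 0.13 in KO and by 0.07 with PA/PC against KO (edgeR adjusted p = 0.0220). The latter reversed to -0.10 with scaling by library totals and to -0.16 with a correction for GC content and length, and it was not called with the replicate number as a block (0.0582) or without KO_PAPC replicate 2 (0.0755), KO replicate 1 (0.0721) or KO replicate 2 (0.128). Its paralog *Rps27*, at 3.11, 3.84 and 3.61 CPM in WT, was not called in KO (0.04) and rose by 0.46 with PA/PC.

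**Figure D3:**
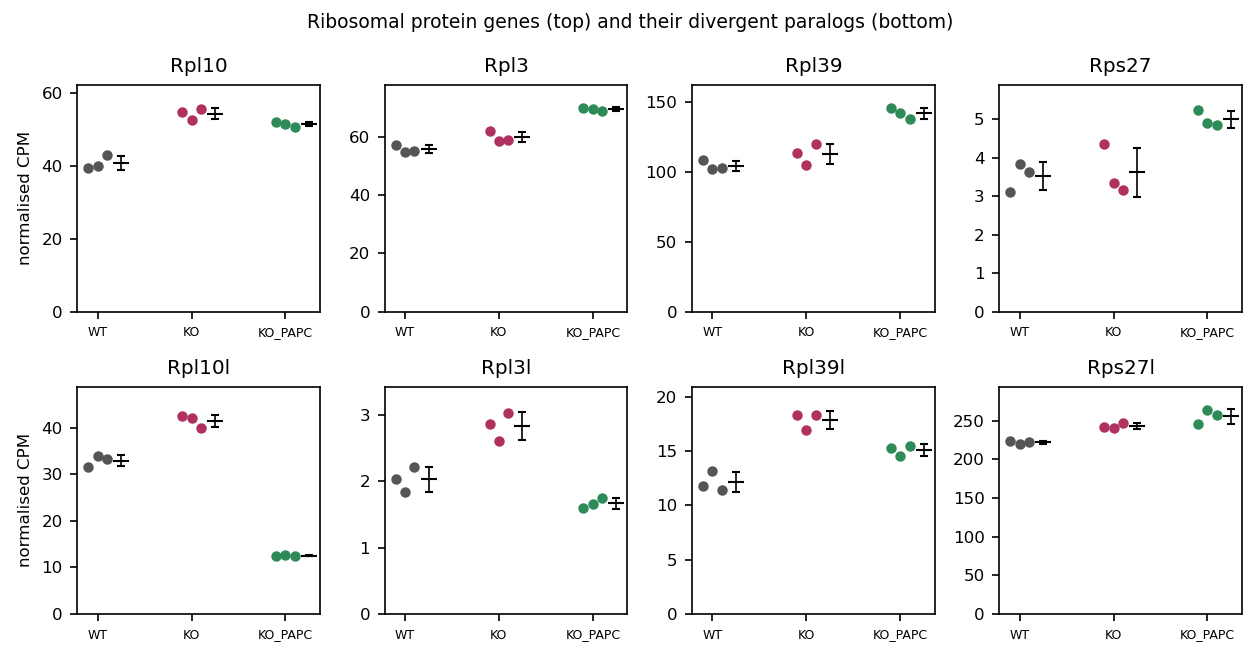
Normalised CPM in each library of 4 ribosomal protein genes (top) and of their divergent paralogs (bottom) in WT, KO and KO_PAPC, each panel with its own axis from 0 and with the mean ± SD of 3 libraries beside the dots. *Rpl10l* falls to 12.4 to 12.7 CPM in KO_PAPC while *Rpl10* stays at 50.9 to 52.1 CPM.

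Large and small subunit genes were set side by side in each comparison. Of all genes tested, 36.8% were called higher and 37.1% lower in KO versus WT. The shares were 39.6% and 42.2% with PA/PC against KO, and 34.2% and 36.4% for KO_PAPC against WT. In KO versus WT the large subunit had a median log2 fold change of -0.04, with 16 of 49 called higher and 22 lower, and the small subunit -0.17, with 5 of 31 called higher and 19 lower. With PA/PC against KO the medians were 0.51 and 0.61, and 41 of 49 and 31 of 31 were called higher. Against WT they were 0.48 and 0.47, and 45 of 49 and 30 of 31 were called higher. The 4 members called lower with PA/PC against KO, and *Rpl10l* against WT, were of the large subunit. Within the large subunit the values spread more, with quartiles of -0.21 and 0.17 in KO versus WT against -0.30 and -0.01 in the small subunit.

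The change of a member went in part with its place in the genome. In KO versus WT the median of the 7 members on chromosome 11 was 0.22 beside 0.21 for the 1370 other genes tested there, and that of the 4 X-linked members 0.27 beside 0.30. On chromosome 17 the 7 members had a median of -0.42 beside -0.24 and on chromosome 4 the 5 members -0.21 beside -0.12. On chromosomes 2, 5, 7, 9, 10 and 15 the members lay below other genes of the opposite sign. Their medians were -0.14 beside 0.03 for the 14 members of chromosome 7 and -0.11 beside 0.05 on chromosomes 5 and 9. They were -0.16 beside 0.04 on chromosome 10, -0.05 beside 0.05 on chromosome 2 and -0.01 beside 0.001 on chromosome 15. On chromosomes 3, 6 and 16 the members lay above the other genes, with 0.07 beside -0.03, 0.09 beside 0.07 and 0.24 beside 0.08. Both medians were below 0 on chromosomes 1, 8, 12, 13, 14 and 18, and that of the members was the lower. Across the 80 members, Spearman's rho between the change of a member and the median of other genes on its chromosome was 0.58 in KO versus WT, 0.53 with PA/PC against KO and 0.18 for KO_PAPC against WT. Members of 1 chromosome share that median, so these are not 80 independent points and no p is given. Relative to it, the members' median was -0.12 in KO, with 54 of 80 below, and the large and small subunit medians were -0.09 and -0.16.

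In KO_PAPC versus KO chromosomes 11 and X had the lowest medians of members and of other genes. The members' median was 0.09 on chromosome 11 beside -0.37 for other genes, 0.15 on X beside -0.48 and 0.74 on chromosome 17 beside 0.32. Both comparisons use the KO libraries, so an order opposite to that in KO versus WT is not independent evidence. On each chromosome that holds members their median lay above that of the other genes. Relative to the chromosome, the members' median was 0.62 and 76 of 80 were above 0, and in KO_PAPC versus WT it was 0.51 with 77 of 80 above 0. The range between the quartiles of the members shrank with this reference, from 0.33 to 0.22 in KO versus WT, from 0.39 to 0.27 in KO_PAPC versus KO and from 0.19 to 0.13 in KO_PAPC versus WT. *Rpl10*, *Rpl23*, *Rpl27* and *Rpl36a*, not called with PA/PC against KO, lay 0.40, 0.37, 0.32 and 0.55 above the median of their chromosomes, whereas *Rpl10l*, *Rpl3l*, *Rpl19* and *Rpl39l* lay below it (-2.05, -1.08, -0.24 and -0.09). Over the 60 members outside chromosomes 8, 11, 17 and X, 10 were called higher and 33 lower in KO (median -0.12), 58 higher and 2 lower with PA/PC against KO (0.57) and 59 higher and 1 lower against WT (0.50). What sets the chromosome medians was not tested.

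**Figure D4:**
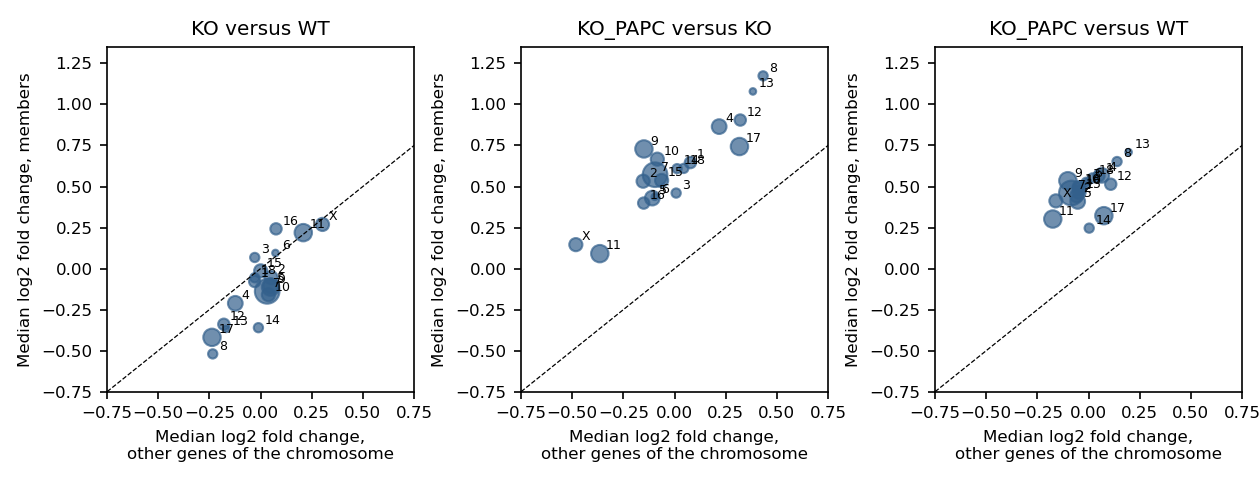
For each chromosome that holds members, the median log2 fold change of its members against that of its other tested genes in the 3 comparisons; the area of a dot grows with the number of members and the dashed line marks equal values. Members on chromosome 11 and X lie near the line in KO versus WT (0.22 and 0.27 beside 0.21 and 0.30), and all dots lie above the line in both comparisons of KO_PAPC.

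Ribosomal protein genes that the naming rule leaves out also rose with PA/PC. Among these were *Rack1*, a scaffold of the small subunit, *Fau*, whose product carries a ribosomal protein behind a ubiquitin-like part, *Rps3a1*, *Rpl36al*, *Rpl22l1* and *Rpl7l1*. Of the 7 in the list, all 7 were called higher in KO_PAPC than in KO (median 0.50) and than in WT (median 0.41). The shares of all genes called higher were 39.6% and 34.2%. In KO 1 of the 7 was called higher and 3 lower, beside 36.8% and 37.1% of all genes. Their median there was -0.008, beside -0.006 over all genes and -0.11 over the members. *Rack1* had 3573, 3642 and 3619 CPM in WT, 3377, 3333 and 3333 in KO and 4690, 4949 and 4871 in KO_PAPC. *Rpl22l1*, the paralog of *Rpl22*, rose by only 0.15 with PA/PC against KO, which turned to -0.02 with scaling by library totals, and did not change in KO by the test (0.01, edgeR adjusted p = 0.901). Unique reads of 293 pseudogenes named after members went from 8504 to 8677 counts per library in WT and 7675 to 8130 in KO to 10742 to 10938 in KO_PAPC. Of 49 such pseudogenes tested, 29 were called higher with PA/PC against KO and 1 lower, beside 39.6% and 42.2% of all genes. Reads of a gene and of its pseudogene cannot be fully told apart.

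Other genes of protein synthesis rose with PA/PC too, to differing degrees. Of all genes tested, 39.6% were called higher and 42.2% lower with PA/PC against KO, and 34.2% higher against WT. Of 18 other TOP mRNAs, which include *Rack1*, *Fau* and some factors of the next lists, 17 were called higher in KO_PAPC than in KO and none lower, with a median log2 fold change of 0.56, and all 18 were higher than in WT. *Eif4b*, an initiation factor, had 773, 773 and 759 CPM in WT, 613, 612 and 608 in KO and 1245, 1262 and 1248 in KO_PAPC. *Npm1*, a nucleolar chaperone, changed by -0.11 in KO and 0.88 with PA/PC, and *Nap1l1*, a histone chaperone, by -0.53 and 1.17. *Vim*, the intermediate filament vimentin, moved most in this list, by -2.04 and 3.11. Of 10 elongation factors, 5 of which are also in the TOP list, 8 were called higher and 1 lower with PA/PC against KO with a median of 0.39, and all 10 were higher than in WT. *Eef1b2* rose by 0.59 and *Eef1g* by 0.65, while *Eef1a2*, the form of muscle and nerve, fell by 0.52 from a mean of 3.53 CPM. Of 29 initiation factors, 21 were called higher and 4 lower with a median of 0.22, and *Eif2s2*, a subunit of eIF2, fell by 1.39.

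The factors that make ribosomes followed less closely. The shares of all genes tested were again 39.6% higher and 42.2% lower with PA/PC against KO. Of 14 genes of RNA polymerase I and its initiation factors, which transcribe ribosomal RNA, 10 were called higher and 2 lower with PA/PC against KO with a median of 0.23, and *Polr1c* rose by 0.80. Of 65 ribosome biogenesis genes, 42 were called higher and 16 lower with a median of 0.20. Among them *Ncl*, nucleolin, had 2692, 2583 and 2548 CPM in WT, 2194, 2240 and 2259 in KO and 4396, 4192 and 4321 in KO_PAPC, whereas *Gnl3l* and *Mybbp1a* fell with PA/PC by 0.84 and 0.37. In KO versus WT this list had 43 called higher and 12 lower, beside 36.8% and 37.1% of all genes, and a median of 0.12. The 77 mitochondrial ribosomal protein genes tested had medians of 0.07 in KO, 0.06 with PA/PC against KO and 0.16 in KO_PAPC against WT, and their share of all counts was 0.468 to 0.470% in WT, 0.497 to 0.498% in KO and 0.466 to 0.477% in KO_PAPC.

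**Figure D5:**
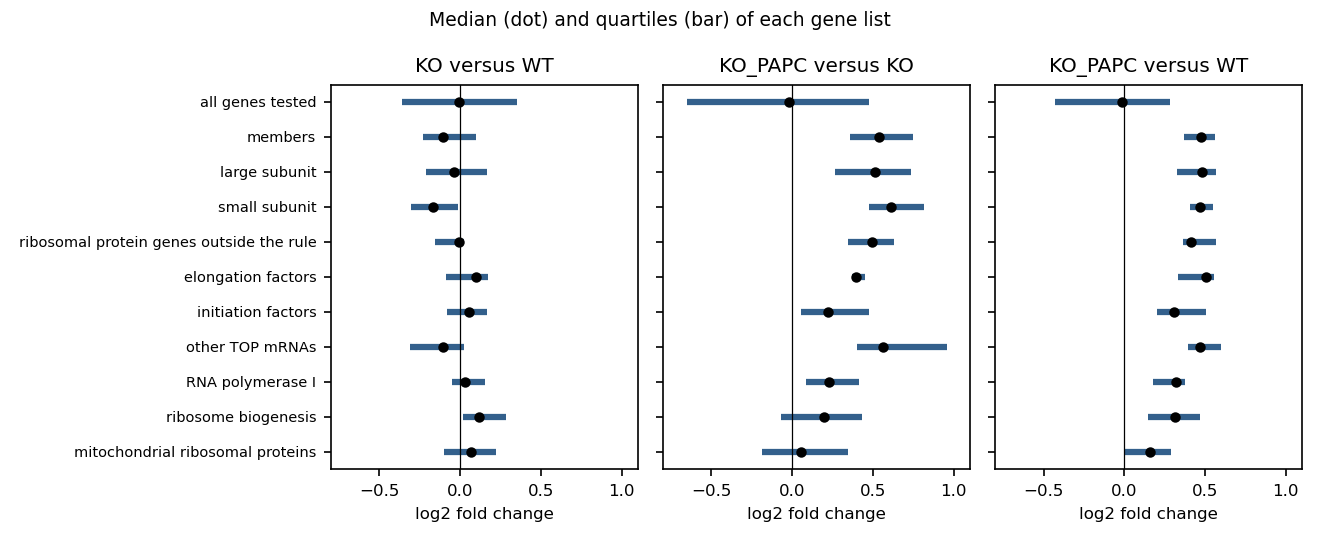
Median (dot) and quartiles (bar) of the log2 fold changes of all genes tested, of the 80 members, of each subunit and of other lists of protein synthesis in the 3 comparisons. In KO_PAPC versus KO the small subunit (0.61), other TOP mRNAs (0.56) and all members (0.54) lie furthest right and the mitochondrial ribosomal proteins (0.06) near all genes (-0.02).

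Genes known to control ribosomal protein synthesis were mixed. Of 28, 14 were called higher and 11 lower in KO, beside 36.8% and 37.1% of all genes tested. With PA/PC against KO 15 were called higher and 9 lower, beside 39.6% and 42.2% of all genes. The 3 Myc genes all fell in KO and rose with PA/PC above WT. *Mycn* had 150, 159 and 159 CPM in WT, 106, 108 and 108 in KO and 222, 224 and 217 in KO_PAPC. *Myc* had 15.2, 14.7 and 14.2, then 9.50, 10.4 and 9.61, then 24.7, 25.2 and 24.9 CPM, and *Mycl* 37.2, 39.9 and 36.6, then 13.4, 13.6 and 12.3, then 66.4, 73.0 and 72.5 CPM in the same order of groups. No groups of these 3 genes overlapped. *Mtor* and *Larp1* moved in the opposite direction, up by 0.47 and 0.58 in KO and down by 0.31 and 0.30 with PA/PC on the log2 scale. *Ddit4*, an inhibitor of mTORC1 induced by stress, fell by 1.82 in KO and rose by 2.75 with PA/PC, and *Mdm2* rose by 0.15 and then fell by 0.83. These are mRNA levels and say nothing of mTOR activity or of translation, which were not measured in these libraries.

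Markers of cell state also differed between the groups, and their part in the changes above was not tested. The 5 ES cell markers (*Pou5f1*, *Sox2*, *Nanog*, *Zfp42* and *Esrrb*) summed to 2042 to 2065 CPM in WT, 3068 to 3091 in KO and 2073 to 2107 in KO_PAPC, and none was at 0. They did not move as one, since *Pou5f1* had means of 657, 669 and 912 CPM in WT, KO and KO_PAPC, whereas *Zfp42* (242, 489 and 136), *Esrrb* (291, 443 and 214) and *Nanog* (369, 749 and 311) peaked in KO and stood below WT in KO_PAPC. The 3 neuroectoderm markers summed to 119 to 123, 35.7 to 39.3 and 219 to 224 CPM and the 3 mesoderm markers to 34.5 to 37.0, 22.9 to 23.2 and 50.5 to 53.9 CPM in the same order. Of the latter, *T* had means of 1.83, 0.281 and 16.7 CPM, *Mixl1* of 0.917, 1.04 and 4.27 and *Eomes* of 33.3, 21.7 and 31.5. The 4 endoderm markers summed to 74.9 to 78.8, 40.8 to 43.5 and 5.91 to 7.19 CPM. The 5 markers of fibroblast feeders reached at most 17.2 CPM in sum, in KO, with 1 of them at 3 counts or fewer in each group, and the 5 blood markers were at 3 counts or fewer in each library. Transcripts of the mitochondrial genome made up 1.85 to 1.87% of counts in WT, 1.96 to 1.98% in KO and 1.26 to 1.34% in KO_PAPC. With nuclear protein-coding counts as the denominator, the members held 2.87% in WT, 2.62% in KO and 3.49% in KO_PAPC on average.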

How the data were processed

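Total RNA of EBs was sequenced from unstranded TruSeq RNA v2 libraries with 51-cycle single-end reads. The deposited counts are whole numbers of reads per Ensembl gene, not normalised. Per the submitters' processing notes, bcl2fastq 2.20.0.422, STAR 2.7.2b, featureCounts 1.6.5 and GRCm38 were used for all libraries; for KO and WT the study also describes an earlier pipeline with TopHat2, and which of them made the WT columns of this 1 table is not certain. Only reads with 1 place in the genome and 1 gene entered the counts, which lowers the counts of genes with pseudogenes; without strand, antisense genes cannot be told apart. Fold changes of members are affected only where this differs between groups. Columns of per-sample values left unused numbered 0.

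Symbols came from GENCODE M21 (241 IDs without a match). Each comparison was fitted on its own 6 libraries with edgeR 4.0.16 (glmQLFTest, TMM, filterByExpr, R 4.3.3), adjusted by Benjamini-Hochberg over all genes tested. Normalised CPM were counts divided by TMM-scaled totals of the 9 libraries. SEs were derived from the F statistic. The study calls the replicates biological but the labels name no separate cultures, so p-values measure the spread between these libraries, which all differed beyond sampling noise by a chi-square test. Named were the 6 largest rises and falls per comparison among called members whose groups do not overlap, the 3 members with most counts, *Rplp0*, *Rplp1*, *Rplp2*, *Rpsa*, *Rps27a*, role lists, X-linked members, ribosomal protein genes outside the rule, *Myc*, *Mycn*, *Mtor*, *Larp1*, the 5 members that followed the members' median least (*Rpl10l*, *Rpl3l*, *Rpl19*, *Rpl39l*, *Rpl10*), and per other list the 2 genes with the smallest adjusted p, of which a part is given, and some of the genes so chosen are not reported here; *Rpl23*, *Rps27* and the members shown only by sequence or shared words were named after their values were seen. The members and lists were chosen with earlier results of these data known, and the mitochondrial ribosomal list, the pseudogenes and the promoter motifs were added afterwards. Tested on simulated data for KO versus WT over 17266 genes, the edgeR test recovered 74% of genes changed by 0.25 and 94% of those changed by 0.5 on the log2 scale, with 7 false calls. In the simulation 200 genes were changed, up or down at random. In these data 73.8% of genes were called in KO versus WT, so the simulation cannot give their rate of false calls. DESeq2 1.42.0 and other settings were tried as alternatives.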

Additional observations from a re-analysis of the deposited data

How the results depend on the processing

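With scaling by library totals, 9 members were called lower with PA/PC against KO (median 0.37) and 3 against WT (median 0.31). The correction for GC content and length gave medians of -0.071 for KO, 0.50 with PA/PC against KO (7 called lower) and 0.44 against WT (2 called lower). At a tested minimum of 1.5-fold, 0 members were called higher and 1 lower in KO, 31 and 1 with PA/PC against KO and 8 higher against WT. The replicate block gave 2 called lower for KO_PAPC against WT and moved no other count by over 1.5 times, and same-numbered replicates did not deviate together (correlations of -0.0415 to 0.0621), so they share only a number. The causes were not tested. Over the 26 members with at most 20% shared words, by construction a smaller set, 5 were called higher and 15 lower in KO, 23 higher with PA/PC against KO and 24 against WT. Relative to the chromosome the medians with PA/PC were 0.62 against KO and 0.51 against WT. This reference, the limit on shared words for calls and medians, and leaving out *Rpl4* were chosen after seeing the data.

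Shares in WT, KO and KO_PAPC were 1.72, 1.57 and 2.06% over members with at most 20% shared words, 2.87, 2.62 and 3.49% of nuclear protein-coding counts and 2.36, 2.16 and 2.93% without *Rpl4*. Ratios of small to large subunit were 1.19, 1.14 and 1.21 over members with few shared words and 1.09, 1.06 and 1.05 without *Rpl4*. Shared words were searched in annotated transcripts, since no genome was used here, so copies outside them were not seen.

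Leaving out 1 replicate gave 19 to 21 members higher, 40 to 44 lower and a median of -0.12 to -0.096 for KO. With PA/PC it gave 68 to 71 higher, 4 to 5 lower and 0.53 to 0.58 against KO, and 74 to 75 higher, 1 to 2 lower and 0.46 to 0.49 against WT. Shares ranged over 2.77 to 2.78% (WT), 2.51 to 2.55% (KO) and 3.35 to 3.44% (KO_PAPC), and ratios over 0.799 to 0.805, 0.776 to 0.782 and 0.794 to 0.799.

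Of 3600 values of named genes under the alternatives, 3361 kept direction and call, 194 lost the call (141 of them at the tested minimum fold), 20 gained it and 25 reversed. In KO versus WT, *Rpl22l1* reversed without the filter (-0.0088), and *Rpl8* (0.12), *Rps15* (0.028) and *Fau* (0.17) with the GC correction. Leaving out 1 replicate there gave -0.051 to 0.090 for *Rpl22l1*, -0.037 to 0.00027 for *Rpl8*, -0.094 to 0.074 for *Fau* and -0.0050 to 0.042 for *Rpl35*. With PA/PC against KO, library totals reversed *Rpl26* (-0.076), *Rpl36a* (-0.095), *Rps27l* (-0.097) and *Rpl22l1* (-0.021), and the GC correction *Rps27l* (-0.16). For KO_PAPC against WT, library totals reversed *Rps10* (-0.061), *Mtor* (-0.00068), *Rpl22l1* (-0.015) and *Znrd1* (-0.078), the GC correction *Rps27l* (-0.018) and *Znrd1* (-0.056), and *Gnl3l* ran from -0.046 to 0.014 without 1 replicate. The low counts of *Rpl3l*, *Rpl24* and *Rpl23a* limit their precision.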
